A study of Mus musculus with 51 samples.

Results

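Hk2, Pfkm and Nagk, which encode 3 sugar-phosphorylating enzymes, were 3 of the 4200 genes with a symbol on a spotted 2-colour mouse array, and were represented by 4 of its 7920 probes. All spots whose platform annotation gives one of these 3 symbols were taken, which found 8 spots, printed as pairs 22 positions apart. Hk2 had 2 probes, kept apart here and called by their print blocks, 27 and 46, and Pfkm and Nagk had 1 each, both in block 28. Each array was centred on its median, and both spots of a pair were averaged. The 3 genes were chosen by their ratios in comparisons of the arrays at 2 and 0.1 pmol with those at 0 pmol, so values at 0, 0.1 and 2 pmol are a description, and tests were run only on the other arrays.

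Each array carried RNA of the same cell line in both channels: CRL1606, a hybridoma from spleen cells of BALB/c mice and the myeloma P3-X63-Ag8, which secretes an antibody against fibronectin. In the spiked groups, transcripts of 100 genes were added to one channel and of a different 100 to the other, each at the amount that names the group. The 6 arrays at 0 pmol had no spike in either channel. The spiked groups were 0.025 pmol (3 arrays), 0.05, 0.1 (6 arrays each), 0.15, 0.2 (3 each), 0.25, 0.5, 0.75 (6 each), 1 and 2 pmol (3 each), which makes 45 spiked arrays. The labels do not name the spiked genes, and they do not say whether replicates came from separate cultures, so the spread between arrays may be technical. A log2 ratio here compares the channels of an array. It is not a level of expression in the hybridoma, and the cell type could not be checked from it. The sources used here do not name the channel in the numerator, so ratios are called positive or negative without naming a channel.

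Hexokinase II, the product of Hk2, traps glucose in the cell by phosphorylating it, and it is the main hexokinase of insulin-sensitive muscle and fat and of many tumour cells. Pfkm encodes the muscle subunit of phosphofructokinase, which phosphorylates fructose phosphate at the committed step of glycolysis. Nagk encodes N-acetylglucosamine kinase, which phosphorylates N-acetylglucosamine recovered from degraded glycoconjugates and so returns it to the pathway that makes UDP-N-acetylglucosamine, a donor for protein glycosylation.

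The arrays measured between 8376 and 16869 of 16896 spots. Spots without a value made up 13.5% to 50.4% on the 3 arrays at 1 pmol and 0.16% to 9.22% elsewhere. The ratios at 1 pmol were also wider, with a median absolute deviation over probes of 0.78 to 1.36 log2 units, against 0.31 to 0.90 on the other arrays. All 4 sugar kinase probes were measured in both spots on all 51 arrays, 1 pmol included.

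Hk2 in block 27 was positive on all 45 spiked arrays, with a lowest value of 1.72, a median of 4.64 and a highest of 6.11. On the 6 arrays at 0 pmol its log2 ratio ran from 0.40 through a median of 0.57 to 0.93. The spiked arrays and the 0 pmol arrays did not overlap. At 0.025 pmol the 3 arrays read 4.70, 2.72 and 4.95, so one of them lay about 2 log2 units under the others. The lowest, median and highest values were 4.32, 4.45 and 4.84 at 0.05 pmol and 3.83, 4.25 and 4.80 at 0.1 pmol. The arrays at 0.15 pmol read 4.89, 5.10 and 5.70, and those at 0.2 pmol 5.28, 4.61 and 5.86. The means were 4.54 and 4.26 at 0.05 and 0.1 pmol and 5.23 and 5.25 at 0.15 and 0.2 pmol, against 4.12 at 0.025 pmol. The highest arrays at 0.05 and 0.1 pmol (4.84 and 4.80) did not reach the lowest at 0.15 pmol (4.89). In the order of all 11 groups by mean, each of these ranges overlapped that of the next group. At 0.25 pmol it ranged from 1.72 through 5.07 to 6.08, the widest spread of the 11 groups (SD 1.58, n = 6). The 1.72 was that of replicate 3, whose paired spots disagreed (0.11 and 3.34). The ranges were 3.43, 4.25 and 4.64 at 0.5 pmol and 3.41, 4.65 and 5.72 at 0.75 pmol. The 1 pmol arrays read 5.27, 6.11 and 5.39, and the 2 pmol arrays 5.0, 5.12 and 3.08. The 2 pmol mean was 4.40 with all 3 arrays and 5.06 without replicate 3, whose paired spots disagreed, and the 0.025 pmol mean was 4.12 with all 3 and 4.82 without replicate 2.

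Ordered by mean, Hk2 in block 27 ran 0, 0.025, 0.5, 0.1, 2, 0.05, 0.25, 0.75, 0.15, 0.2 and 1 pmol. Of the 10 pairs of neighbours in that order, 9 had overlapping ranges, and the exception was the step between 0.025 and 0 pmol. Without the single arrays just named, 2 pmol or 0.025 pmol would each stand at place 8 in that order. The mean differed from that at 0 pmol by 3.51 at 0.025 pmol (standard error 0.54), and the other 9 differences lay between 3.57 and 4.98. All 10 differences share the same 6 arrays at 0 pmol. The place of 1 pmol depends on the width of its arrays. With every array scaled to one spread (the same median absolute deviation), this probe averaged 2.99 at 1 pmol. That was its lowest mean among the 8 spiked amounts other than 0.1 and 2 pmol.

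The other Hk2 probe, in block 46, was negative on all 45 spiked arrays, from -5.20 through a median of -2.06 to -0.03. At 0 pmol it lay between -0.33 and 0.37 with a median of 0.03. It was positive on the 3 arrays numbered 4 to 6 and negative on the 3 numbered 1 to 3. Unlike the first probe, it reached into the 0 pmol range on some spiked arrays. The arrays at 0.025 pmol read -0.63, -2.83 and -1.32. The lowest, median and highest values were -2.69, -1.32 and -0.03 at 0.05 pmol and -2.29, -1.42 and -0.68 at 0.1 pmol. Replicates of 1 amount therefore differed by up to 2.66 log2 units, more than the amount means of these groups differed from each other. At 0.15 pmol the arrays read -1.56, -1.95 and -2.01, and at 0.2 pmol -1.96, -1.39 and -2.45. The ranges were -2.90, -1.79 and -0.59 at 0.25 pmol, -3.04, -2.71 and -2.31 at 0.5 pmol, and -2.43, -1.37 and -0.05 at 0.75 pmol. The tightest of the 6-array spiked groups was 0.5 pmol, with an SD of 0.24. The 1 pmol arrays stood apart at -5.16, -5.20 and -4.53, and the 2 pmol arrays read -3.28, -2.94 and -3.07. Scaled to one spread, 1 pmol did not stand apart: the mean was -2.69 there and -3.26 at 0.5 pmol.

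The order of the means of this probe was 1, 2, 0.5, 0.2, 0.15, 0.25, 0.025, 0.1, 0.05, 0.75 and 0 pmol, lowest first. Again 9 of 10 neighbouring groups overlapped, and here the gap lay between 1 and 2 pmol. Without replicate 2 the 0.025 pmol mean was -0.98. The differences from 0 pmol were -1.61 at 0.025 pmol (standard error 0.49), -1.33 at 0.75 pmol (standard error 0.40) and -4.98 at 1 pmol (standard error 0.49).

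**Figure D1:**
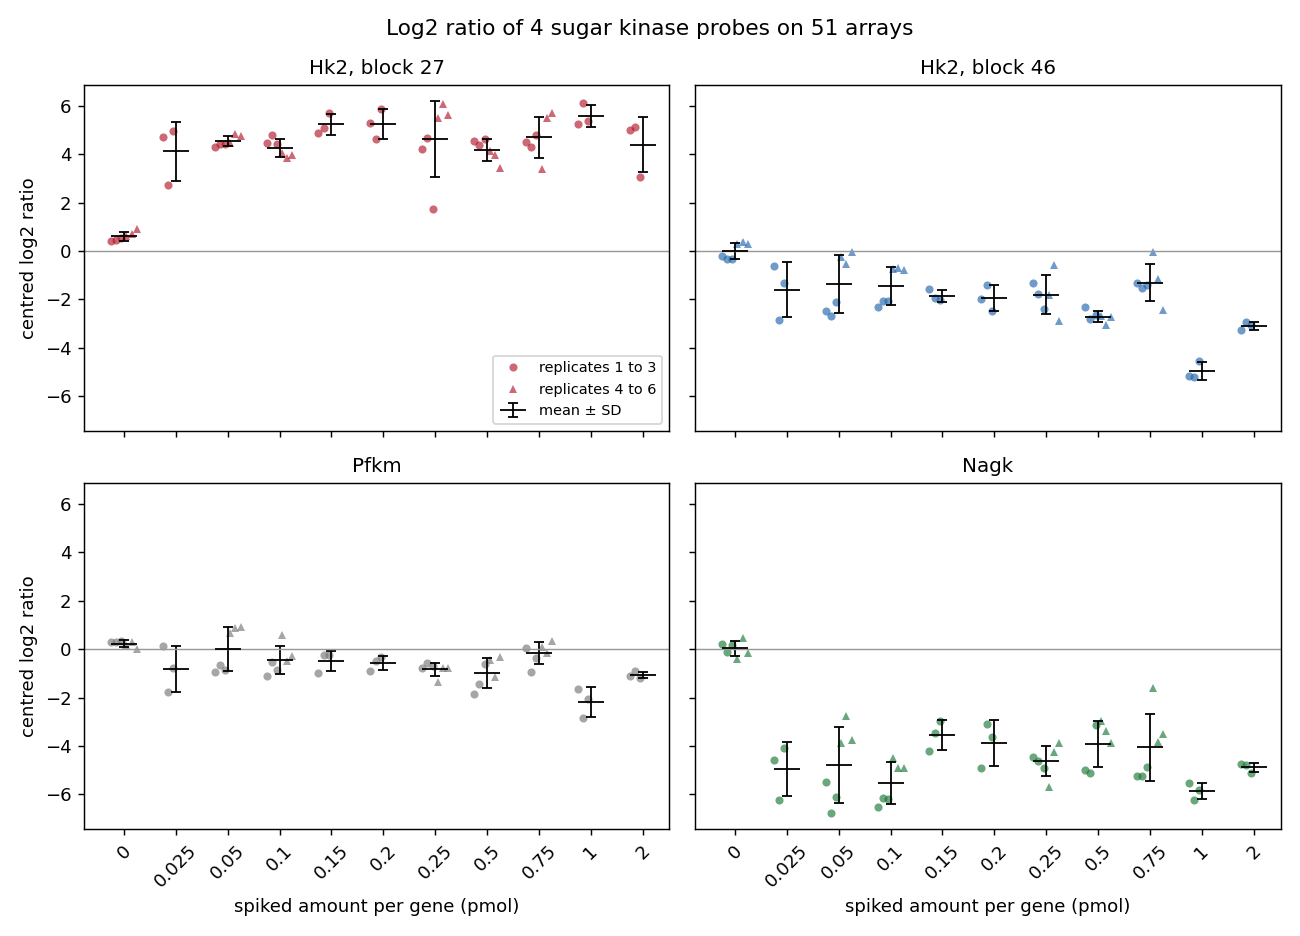
Centred log2 ratio (vertical axis, log2 units) of the 4 sugar kinase probes on 51 arrays, by spiked amount in pmol (categories, not to scale). Each point is 1 array and bars give the mean ± SD. Hk2 in block 27 sits between 1.72 and 6.11 on spiked arrays, Hk2 in block 46 between -5.20 and -0.03, Pfkm between -2.85 and 0.93, and Nagk between -6.78 and -1.62.

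The platform annotation lists both Hk2 probes under the same RefSeq transcript accession, yet their ratios were on opposite sides of 0 on every spiked array. The difference of block 27 minus block 46 averaged 5.72 ± 0.50 at 0.025 pmol (SD, n = 3), 5.89 ± 1.06 at 0.05 pmol (n = 6) and 5.70 ± 1.11 at 0.1 pmol (n = 6). It was 7.07 ± 0.63 at 0.15 pmol (n = 3), 7.19 ± 1.16 at 0.2 pmol (n = 3) and 6.44 ± 1.51 at 0.25 pmol (n = 6). At 0.5 pmol it was 6.89 ± 0.40 (n = 6), at 0.75 pmol 6.02 ± 1.52 (n = 6), at 1 pmol 10.55 ± 0.70 (n = 3) and at 2 pmol 7.5 ± 1.17 (n = 3). The size at 1 pmol depends on the scale, since both probes averaged 2.99 and -2.69 there with arrays scaled to one spread. At 0 pmol the unscaled difference was 0.59 ± 0.21 (n = 6), with a highest value of 0.83, and all spiked arrays lay above it. Over the 36 arrays at the 8 amounts that had no part in choosing the genes, the difference averaged 6.75, with a lowest value of 3.46 and a highest of 11.31, and was positive on 36 of 36. A two-sided permutation test that flipped the sign of whole arrays gave p = 1e-05, the smallest that 100000 resamples can give. It tested against a difference of 0, so it cannot separate the spiked difference from the 0.59 present at 0 pmol. The comparison with 0 pmol was not tested.

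**Figure D2:**
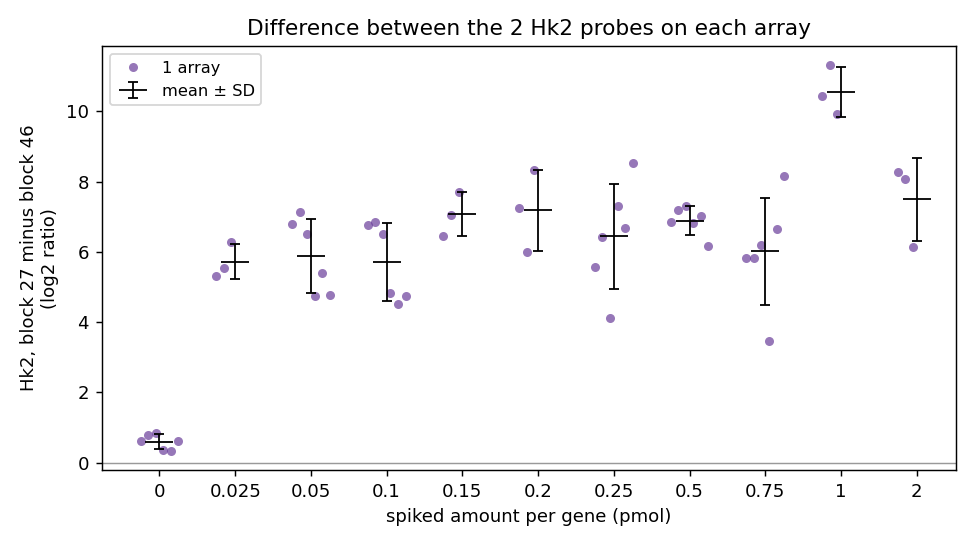
Difference in log2 ratio between both Hk2 probes on each array (vertical axis, block 27 minus block 46), by spiked amount in pmol (categories). Points are arrays and bars the mean ± SD; the 3 arrays at 1 pmol average 10.55, and the 6 arrays at 0 pmol 0.59.

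Among the 433 genes with 2 tested probes, the median absolute difference between the probes, averaged over the same 8 amounts, was 0.34 log2 units. Hk2, at 6.97, ranked first, and it ranked first or second under each of the 6 other settings tried. Its rank on the 0 pmol arrays was 227 of 632 genes. In 50 of the 433 genes (11.5%) both probes passed the test described next with opposite signs, and Hk2 is one of these. The oligonucleotide sequences of the probes were not used here, so the pieces of Hk2 that they detect are not described.

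Pfkm varied about a small negative value. It was negative on 37 and positive on 8 of the 45 spiked arrays, with a lowest value of -2.85, a median of -0.68 and a highest of 0.93. At 0 pmol it ran from -0.01 through 0.28 to 0.35, and it was positive on 5 of 6 arrays. The spiked arrays overlapped those at 0 pmol in this gene. At 0.025 pmol the arrays read 0.12, -1.78 and -0.78, at 0.15 pmol -0.97, -0.24 and -0.25, and at 0.2 pmol -0.91, -0.47 and -0.33. The lowest, median and highest values were -0.95, 0.01 and 0.93 at 0.05 pmol, -1.10, -0.51 and 0.60 at 0.1 pmol, and -0.92, -0.04 and 0.33 at 0.75 pmol. These 3 groups held arrays of both signs, as did 0.025 pmol. At 0.25 pmol the values were -1.37, -0.77 and -0.59, and at 0.5 pmol -1.87, -0.88 and -0.34. The 1 pmol arrays read -1.63, -2.85 and -2.04, and the 2 pmol arrays -1.09, -0.91 and -1.20. Only the neighbours 1 and 2 pmol were apart in the order of means, which ran 1, 2, 0.5, 0.25, 0.025, 0.2, 0.15, 0.1, 0.75, 0.05 and 0 pmol. Scaled to one spread, Pfkm averaged -1.12 at 1 pmol and -1.19 at 0.5 pmol.

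Nagk was negative on all 45 spiked arrays, from -6.78 through a median of -4.74 to -1.62. At 0 pmol it lay between -0.42 and 0.45 with a median of 0.05, so the groups did not overlap. The arrays at 0.025 pmol already read -4.56, -6.23 and -4.09. The lowest, median and highest values were -6.78, -4.68 and -2.75 at 0.05 pmol and -6.50, -5.54 and -4.48 at 0.1 pmol. The 0.15 pmol arrays read -4.19, -3.48 and -2.97, and the 0.2 pmol arrays -4.91, -3.10 and -3.61. These were the means nearest to 0 among the spiked groups, at -3.55 ± 0.61 and -3.88 ± 0.94 (SD, n = 3 each). The ranges were -5.68, -4.53 and -3.86 at 0.25 pmol, -5.13, -3.63 and -2.95 at 0.5 pmol, and -5.25, -4.35 and -1.62 at 0.75 pmol. The 1 pmol arrays read -5.54, -6.22 and -5.82, and the 2 pmol arrays -4.74, -4.79 and -5.10. The means at the lowest and highest spiked amounts were -4.96 and -4.88, and -4.32 at the lowest without its replicate 2.

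In order of mean, Nagk ran 1, 0.1, 0.025, 2, 0.05, 0.25, 0.75, 0.5, 0.2, 0.15 and 0 pmol, lowest first, and the step between 0.15 and 0 pmol was the one without overlap. Its differences from 0 pmol were -4.99 at 0.025 pmol (standard error 0.65), -3.58 at 0.15 pmol (standard error 0.65) and -5.89 at 1 pmol (standard error 0.65).

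Whether the ratios departed from 0 was tested on the 36 arrays at 0.025, 0.05, 0.15, 0.2, 0.25, 0.5, 0.75 and 1 pmol with limma, fitted to the 6004 probes measured on at least 2 arrays of each amount and adjusted over all of them (Benjamini-Hochberg, two-sided). Averaged with equal weight over the 8 amounts, Hk2 in block 27 had a centred log2 ratio of 4.78 (95% interval 4.48 to 5.08). This is 27.5-fold above the median ratio of the array. Nagk averaged -4.45 (95% interval -4.82 to -4.09), which is 21.9-fold below that median. The folds depend on the centring: without it Hk2 in block 27 averaged 3.42 and Nagk -5.82. Hk2 in block 46 averaged -2.19 (95% interval -2.46 to -1.92) and Pfkm -0.75 (95% interval -0.96 to -0.54). Without the arrays at 1 pmol these 2 means were nearer to 0, at -1.79 and -0.55, and those of Hk2 in block 27 and Nagk were 4.67 and -4.25. All 4 still passed. Over all 36 arrays the limma adjusted p was 4.6e-24 and 3.1e-16 for the Hk2 probes in blocks 27 and 46. It was 5.9e-21 for Nagk and 3.2e-07 for Pfkm, so all 4 passed. In this test 51.5% of the 6004 probes passed, 22% positive and 29.5% negative, so a departure from 0 alone was common among them. The sizes were not: the median absolute mean over all tested probes was 0.21, and 3.21% of them reached 2 log2 units. Hk2 in block 27 was the 22nd highest of the 6004 means, Nagk the 12th lowest, Hk2 in block 46 the 69th lowest and Pfkm the 324th lowest.

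At single amounts, Hk2 in block 27 passed as positive at 8 of 8, and Hk2 in block 46 and Nagk passed as negative at 8 of 8. Of all 6004 probes, 10.3% passed as positive and 12.3% as negative with 0.025 pmol, 13.1% and 13.4% with 0.05 pmol, 5.35% and 4.03% with 0.15 pmol, and 4.33% and 2.15% with 0.2 pmol. The shares were 7.78% and 3.63% with 0.25 pmol, 9.41% and 9.49% with 0.5 pmol, 7.74% and 5.06% with 0.75 pmol, and 14.9% and 29.7% with 1 pmol. Pfkm passed at 3 of 8 amounts, all negative: 0.25 pmol (-0.83 ± 0.28, SD, n = 6, limma adjusted p 0.019), 0.5 pmol (-0.98 ± 0.61, SD, n = 6, limma adjusted p 0.0029) and 1 pmol (-2.17 ± 0.62, SD, n = 3, limma adjusted p 3.7e-06). At 0.05 pmol its mean was 0.00 ± 0.91 (SD, n = 6). The 0.25 pmol call was lost without replicate 4 (-0.72, limma adjusted p 0.089) and in replicates 1 to 3 alone (-0.68, limma adjusted p 0.20). The 0.5 pmol call was lost in replicates 4 to 6 alone (-0.64, limma adjusted p 0.059) and without centring (-0.90, limma adjusted p 0.35). Without 0.025 pmol replicate 1 Pfkm also passed at 0.025 pmol (-1.28, limma adjusted p 0.023). For Hk2 in block 46, leaving out 0.025 pmol replicate 2 (-0.98, limma adjusted p 0.24), 0.15 pmol replicate 3 (-1.75, limma adjusted p 0.053) or 0.2 pmol replicate 3 (-1.67, limma adjusted p 0.076) ended the call at that amount. Its 0.025 pmol call was also lost with arrays scaled to one spread (-1.16, limma adjusted p 0.11), and its calls at 0.05 pmol (-0.28, limma adjusted p 0.66) and 0.75 pmol (-1.21, limma adjusted p 0.17) were lost in replicates 4 to 6 alone. The calls of Hk2 in block 27 and Nagk at single amounts were kept under all these alternatives.

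A second test asked whether the ratio followed the amount, as a slope on log2 of the amount over the same 36 arrays. The slope of Hk2 in block 27 was 0.086 log2 units per doubling (95% interval -0.090 to 0.26, limma adjusted p 0.49). Nagk had a slope of 0.060 (95% interval -0.16 to 0.29, limma adjusted p 0.72) and Pfkm one of -0.14 (95% interval -0.30 to 0.01, limma adjusted p 0.16). Hk2 in block 46 became more negative by 0.29 per doubling (95% interval 0.08 to 0.51, limma adjusted p 0.046), where 21.1% of all probes passed and 10.5% did so with a negative slope. Without the 3 arrays at 1 pmol the slope of that probe was -0.10 and no longer passed (limma adjusted p 0.44). Leaving out single arrays ended the call for 20 of the 36, among them all 3 at 1 pmol and all 6 at 0.5 pmol, with slopes between -0.30 and -0.24. Thus 1 of the 4 probes passed, close to the threshold.

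**Figure D3:**
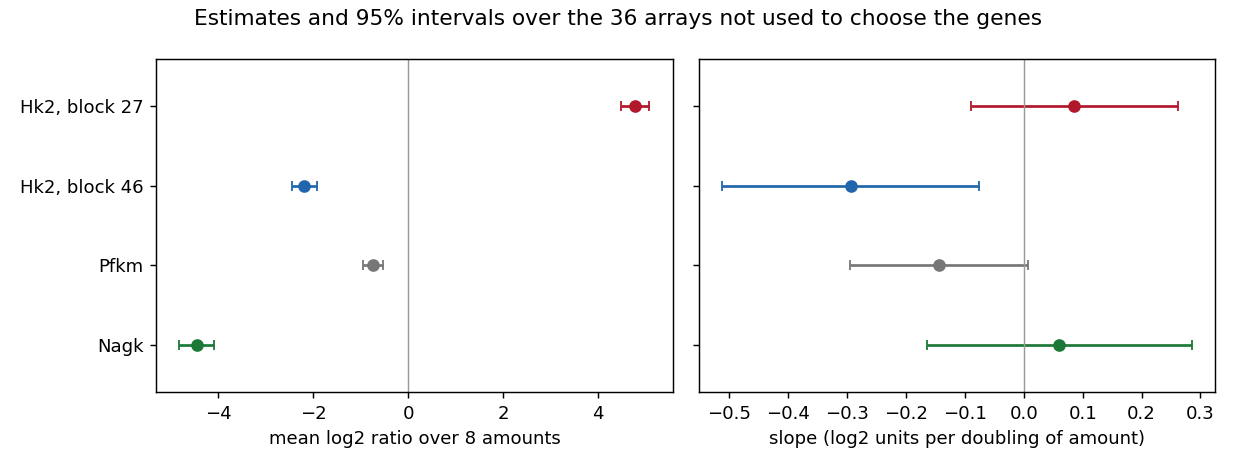
Left, mean log2 ratio over the 8 amounts that had no part in choosing the genes; right, slope in log2 units per doubling of the amount; points are limma estimates over 36 arrays and bars 95% intervals. The means of Hk2 in block 27 (4.78) and Nagk (-4.45) lie far from 0 on opposite sides, while their slopes (0.086 and 0.060) have intervals that include 0.

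Where an amount had 6 arrays, those numbered 4 to 6 could be set beside those numbered 1 to 3. Nagk averaged -3.47 in the later-numbered arrays and -6.12 in the others with 0.05 pmol, and -4.76 and -6.28 with 0.1 pmol. Hk2 in block 46 averaged -0.28 and -2.42 with 0.05 pmol, and -0.74 and -2.14 with 0.1 pmol. Pfkm averaged 0.83 and -0.82 with 0.05 pmol, and -0.061 and -0.82 with 0.1 pmol. In these 3 probes the ranges of both sets of arrays did not overlap at either amount, and numbers 4 to 6 were the higher. Hk2 in block 27 was also split without overlap, but in no fixed direction: its means were 4.68 and 4.39 with 0.05 pmol, 3.96 and 4.56 with 0.1 pmol, 5.73 and 3.54 with 0.25 pmol, and 3.84 and 4.52 with 0.5 pmol. With 0.75 pmol its ranges overlapped (4.88 and 4.53). The 3.54 with 0.25 pmol includes replicate 3, whose paired spots disagreed in this probe. Hk2 in block 46 and Pfkm overlapped with 0.25, 0.5 and 0.75 pmol, and the later-numbered arrays were the lower in Hk2 in block 46 with 0.5 pmol (-2.82 and -2.60) and in Pfkm with 0.25 pmol (-0.97 and -0.68). Nagk averaged -2.99 and -5.12 with 0.75 pmol, again without overlap, while its ranges overlapped with 0.25 pmol (-4.60 and -4.66) and 0.5 pmol (-3.40 and -4.43). The arrays at 0 pmol were split too. There Hk2 in block 46 averaged 0.31 and -0.28, Hk2 in block 27 0.75 and 0.46, and Pfkm 0.15 and 0.31, each without overlap. Nagk overlapped with 0 pmol (-0.040 and 0.10). With 3 arrays against 3, an exact permutation test could not have passed the threshold, and none was run. The paired spots of all probes correlated at 0.40 to 0.69 on the arrays numbered 4 to 6 of the 0.05 and 0.1 pmol groups. On those numbered 1 to 3 they correlated at 0.92 to 0.96. The lowest correlation of all 51 arrays, 0.20, was that of 0.75 pmol replicate 4. That array read -1.62 in Nagk, 3.41 in Hk2 in block 27 and -0.05 in Hk2 in block 46. The part of the spot correlation in these shifts was not tested.

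**Figure D4:**
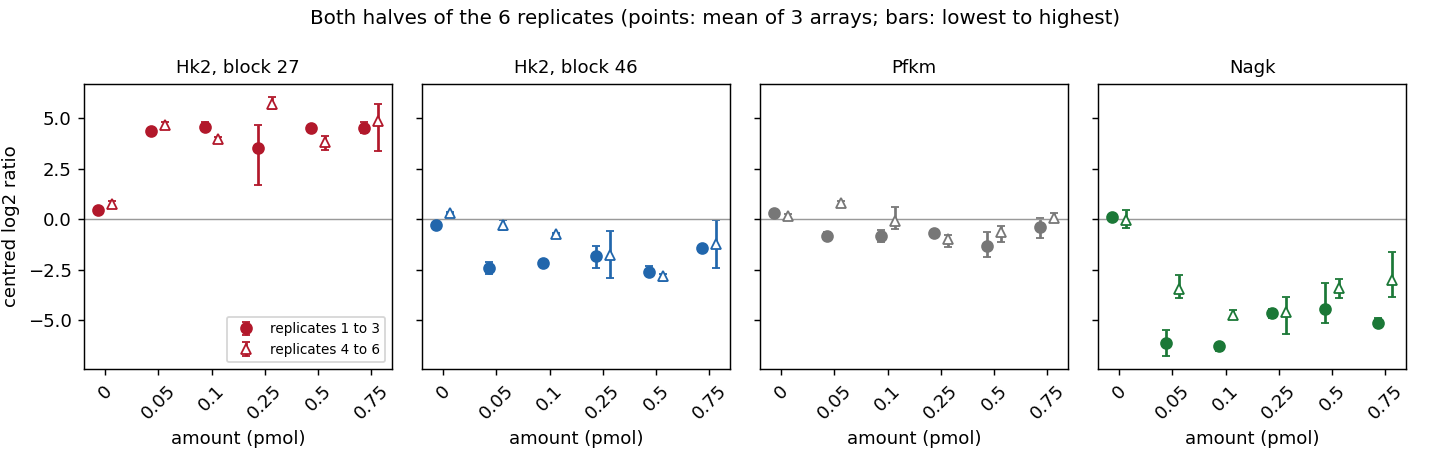
Centred log2 ratio of the 4 probes at the amounts with 6 arrays, replicates 1 to 3 (filled circles) and 4 to 6 (open triangles); points are means of 3 arrays and bars run from the lowest to the highest array. With 0.05 pmol, Nagk averages -3.47 in the triangles and -6.12 in the circles, and Hk2 in block 27 averages 4.68 and 4.39.

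The arrays also fell into sets in a clustering of their ratios over probes other than the most extreme ones. All 6 arrays at 0 pmol lay in a set with 10 spiked arrays, at 0.05, 0.1 and 0.75 pmol. Within that set Hk2 in block 27 lay between 3.41 and 4.84 on the spiked arrays and between 0.40 and 0.93 at 0 pmol, and Nagk between -5.25 and -1.62 and between -0.42 and 0.45. Neither range of spiked arrays reached that of the 0 pmol arrays. The values at both 0 and 0.1 pmol took part in choosing the genes. Hk2 in block 46, between -1.53 and -0.03 on the spiked arrays and between -0.33 and 0.37 at 0 pmol, overlapped there. Pfkm lay between -0.92 and 0.93 on the spiked arrays and between -0.01 and 0.35 at 0 pmol.

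Both spots of a probe read nearly alike. The median absolute difference between them over 51 arrays was 0.056 for Hk2 in block 27, 0.069 for Hk2 in block 46 and 0.10 for Pfkm and for Nagk. Each probe had 3 or 4 arrays with a difference over 0.5. In Hk2 in block 27, 2 pmol replicate 3 read 4.82 and 1.33 in its first and second spot, and 0.25 pmol replicate 3 read 0.11 and 3.34. These arrays gave the lowest values of their groups, and in each the other spot alone was closer to the rest of the group. The other 3 probes differed between spots by at most 1.21.

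The probes printed next to the members were also read. Directly below Hk2 in block 27, the probe without a symbol at spot 9481 averaged 1.15 over the 8 amounts, and the one below Hk2 in block 46, at spot 15893, averaged -1.21. Both passed the limma test (adjusted p 4.1e-08 and 1.8e-12) with the sign of the Hk2 probe above them. Of the 9 neighbours of the 4 probes that could be tested, 6 passed, where 51.5% of all probes did. The other tested neighbours of Hk2 in block 27 averaged -0.026 (Hunk, left) and -0.18 (spot 9393, above), and that of Hk2 in block 46 averaged -0.27 (spot 15850, right). The neighbours of Pfkm averaged -0.38 (Slc1a3, above) and -0.37 (spot 9785, left). The neighbours of Nagk averaged -0.057 (spot 9832, left) and 0.63 (spot 9789, above), far from its -4.45. At 0 pmol, spots 9789 and 15850 averaged 0.64 and -0.26, close to their means over the 8 amounts. Spots 9481, 15893 and 9785 and Slc1a3, which also passed, averaged -0.004, 0.06, 0.24 and 0.05 at 0 pmol. The part of position in these ratios was not tested.

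The patterns most like those of the sugar kinases, by the mean absolute difference of the 11 amount means among 6002 probes, came from probes of unrelated names. Nearest to Hk2 in block 27 were the probe without a symbol at spot 16036 (0.46), Snd1, a nuclease of RNA silencing and splicing complexes (0.48), and Fabp5, a fatty acid binding protein (0.50). To Hk2 in block 46 the nearest were Zfp688, a zinc finger protein (0.32), spot 16389 (0.34) and Gm8369 (0.36). Pfkm was followed by Yipf6, a Golgi membrane protein (0.21), Xist, the RNA that silences an X chromosome (0.25), and spot 10791 (0.25), and Nagk by Nap1l4, a histone chaperone (0.29), Cmpk1, a pyrimidine nucleotide kinase (0.52), and Slc25a44, a mitochondrial carrier (0.55). The other Hk2 probe was 6.32 away from each Hk2 probe.

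The other tested enzymes of the same pathways had smaller mean ratios than Hk2 in either block or Nagk, which were chosen by their ratios. Pfkm, at -0.75, was exceeded in size by a Pfkp probe (-0.91), Gmds (1.15) and Hexa (-0.77). Of 43 genes listed for glycolysis and sugar phosphorylation, 9 were on the array with 13 probes, and 11 probes could be tested. Beside the Hk2 and Pfkm probes, 2 of 8 passed the limma test of the mean over the 8 amounts, against 51.5% of all probes. Eno3, the muscle enolase, averaged 0.34, with 0.36 on the 0 pmol arrays, which the test did not use. Of 4 probes of Pfkp, the platelet phosphofructokinase subunit, 1 passed with a mean of -0.91 (spot 9524), and the other 3 averaged -0.18, 0.023 and -0.021. At 2 pmol spot 9524 averaged 0.34. In the slope test, which 21.1% of all probes passed, 2 of the 8 probes passed, both with positive slopes. They were Pfkp at spot 9524 (0.38, limma adjusted p 0.0035) and at spot 8117 (0.30, limma adjusted p 0.0025). The median of the 8 probes was -0.077, against -0.051 over all probes tested.

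Of 30 genes listed for amino sugar and nucleotide sugar metabolism, 8 were measured, each by 1 probe. Beside Nagk, 4 of 7 passed, where 51.5% of all probes did, and the median of the 7 was -0.017. Gmds, which starts GDP-fucose synthesis, averaged 1.15, with 0.096 on the 0 pmol arrays. Gfpt1, the rate-limiting enzyme of the hexosamine pathway, averaged 0.41, with 0.51 on the 0 pmol arrays. Nans, a sialic acid synthase, averaged 0.39, with -0.030 at 0 pmol. Hexa, a subunit of lysosomal hexosaminidase, averaged -0.77, with -0.48 at 0 pmol. The positive signs of Eno3, Gmds, Gfpt1 and Nans depend on the centring: without it they averaged -1.03, -0.25, -0.95 and -0.93, where the median of all probes was -1.40. Hk2 in block 27 averaged 3.42 without centring. The negative means could not change sign, since leaving out the centring lowers all probes together.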

How the data were processed

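RNA of CRL1606 was compared with itself on 51 2-colour arrays, grouped by the amount in the sample titles. Values were deposited as log2 ratios, 1 for each spot on an array; the base was read from the values, and the image software, background subtraction and normalisation are not given in the sources used here. The array medians of the deposited log2 values ran from -3.33 to 0.97, so the arrays had not been centred, and 1074 values at an upper limit of 16.61 were treated as missing. The 528 probes at 11 control positions were left out. Each array was centred on the median of its other spots and paired spots were averaged. Symbols were updated by Entrez identifier with RefSeq genes of GRCm38.p6, used for names only.

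Tests used limma 3.58.1 in R 4.3.3, over 36 arrays, with an adjusted p under 0.05 as the threshold and at least 2 arrays per amount. They were checked on simulated data with arrays drawn independently, which cannot show how the tests behave when arrays share technical causes. The contrasts with 0 pmol came from 1 fit of all 51 arrays and carry no p. Plots used matplotlib 3.10.9 (Python 3.11.15). The number of arrays limits the precision, and arrays of 1 amount may share technical causes, so p-values may be too small.

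The genes, lists and tests were chosen with earlier results of these data known. Named genes are the 4 probes, called members of both lists, the 3 nearest patterns, and printed neighbours. Alternatives changed the centring, array scale, spots, upper limit, arrays, filter, block and array set.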

Additional observations from a re-analysis of the deposited data

Results flagged for a closer look

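In 1 of 30 groups of 6 arrays, counting the 4 probes and the Hk2 difference, an array lay far from the others by Dixon's criterion, which chance meets in about 1 of 20 groups. It was Pfkm on 0.25 pmol replicate 4, at -1.37, where the other 5 arrays lay between -0.79 and -0.59. The group mean of -0.83 passed the limma test (adjusted p 0.019), and without this array the mean of -0.72 did not (limma adjusted p 0.089).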

How the results depend on the processing

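The means of both Hk2 probes and Nagk over the 8 amounts, and the Hk2 probe difference, kept their sign and stayed past the threshold under every alternative that could be fitted: the Hk2 means ran from 3.42 to 4.92 (block 27) and -3.55 to -1.52 (block 46), Nagk from -5.82 to -3.61 and the difference from 6.31 to 6.97. The mean of Pfkm did not pass in replicates 4 to 6 (-0.17). The slope of Hk2 in block 46 missed the threshold without centring (-0.26), with arrays scaled to one spread (-0.22), with the first (-0.30) or second spot (-0.29) alone, with the upper limit kept (-0.29), without 1 pmol (-0.10), in replicates 1 to 3 (-0.28) or 4 to 6 (-0.41), with the array sets as covariate (-0.071), and, added after seeing the data, without 1 pmol and 0.75 pmol replicate 4 (-0.15). Leaving out single arrays gave -0.36 to -0.24. The slope of Hk2 in block 27 was -0.063 in replicates 4 to 6. Pfkm at 0.05 pmol, at 0.003, was -0.15 scaled, -0.002 with the second spot, -0.82 in replicates 1 to 3 and 0.83 in replicates 4 to 6. At 0.75 pmol it was 0.090 in replicates 4 to 6. Its -1.62 at 0.05 pmol without centring is a shift shared by all probes. The causes were not tested.

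Among all probes, 3093 passed for the mean (42.6% of them positive), 5909 without centring (2.47% positive), which moved the median of all probes to -1.40, against -0.051 with centring, and 1968 of 3847 over probes measured on every array (61.6% positive). For the slope 1267 passed (50.2% positive), 36 without centring (77.8% positive), 631 with array set, 0 of 7902 in replicates 4 to 6 (limma; 1313 at an unadjusted p under 0.05), and 738 to 1384 without single arrays. The glycolysis list had 11 of 11 called without centring. The amino sugar list had 2 of 4 over probes measured on every array and 3 to 5 without single arrays. Calls of the 4 probes at single amounts numbered 27 of 32, beside the shares of all probes given with those calls above. In replicates 4 to 6 they numbered 12 of 16. There 2382 of 7902 probes passed for the mean, and shares of all probes at single amounts were not counted. Replicate numbers did not pair the arrays (median correlation of deviations -0.01 between arrays of the same number). With the replicate number as a block the means were 4.92, -2.05, -0.59 and -4.09 for Hk2 in blocks 27 and 46, Pfkm and Nagk, and the slope of Hk2 in block 46 was -0.32; no call of these probes changed. With array set as a covariate the means could not be fitted, since no other amount shares a set with 1 pmol. The Hk2 probe difference was not run with the block or the array sets.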
